A study of Homo sapiens with 6 samples.

Results

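The miR-548 family is a large group of short regulatory RNAs found only in primates. Its members were chosen as all probes of the array whose name starts with miR-548, which gave 61 of 1891 human microRNA (miRNA) probes. Between them these 61 probes carry 67 distinct miR-548 names, and 10 of them carry more than 1 name. By name, 16 probes belong to the 5p arm of the hairpin precursor, 19 to the 3p arm and 26 give no arm. RNA came from Lovo, SW620 and HT29 cells, which are human colorectal cancer lines. Each was stably transfected with a pSUPER gfp-neo vector that expressed a short hairpin RNA (shRNA), directed at TGF-β1 in the knockdown cells and a control sequence in the others. Every one of the 6 groups (3 lines, each with knockdown and control) had 1 array. All lines, controls included, thus carried the vector, and the labels do not say whether a transfected line was 1 clone or a pool. TGF-β1 is a secreted growth factor. Its messenger RNA is not measured by miRNA probes, and the knockdown was therefore not checked here. Grouping used the sample titles. In Lovo control and in HT29 knockdown a second label field contradicts the title, so signs in these 2 lines depend on the titles being right.

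In background, a miRNA guides a repressor complex to messenger RNAs that pair with its seed, the stretch just behind its first base. The miR-548 genes derive from Made1, a short palindromic element of the mariner class of DNA transposons, whose inverted repeats fold into a hairpin when transcribed. Copies of the element lie scattered over the genome, so that the family has many genes with closely related products, often lying within other genes. RefSeq lists 73 miR-548 genes on 22 chromosomes.

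The sequences below show how alike the members are, which bears on what each probe can tell apart. They are mature miRNAs from RefSeq (GRCh38.p14), written 5′ to 3′ with the seed, bases 2 to 8, in capitals. They are not the capture probes, whose sequences were not used here. A sequence was matched for 40 of the 61 probes and 4 of the 8 detected ones. The detected probes without a match were miR-548a-5p and all 3 detected probes named 3p, so what is said of sequences leaves these out. Shown first are those 4 matched, detected members, then near relatives and opposite arms whose probes were detected on no array, except that miR-548j-5p is named by 2 probes of which 1 was detected.
miR-548an: aAAAGGCAuugugguuuuug
miR-548ap-5p: aAAAGUAAuugcggucuuu
miR-548ah-5p: aAAAGUGAuugcaguguuug
miR-548at-5p: aAAAGUUAuugcgguuuuggcu
miR-548ar-5p: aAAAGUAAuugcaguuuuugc
miR-548w: aAAAGUAAcugcgguuuuugccu
miR-548b-5p: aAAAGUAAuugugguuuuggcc
miR-548j-5p: aAAAGUAAuugcggucuuuggu
miR-548ah-3p: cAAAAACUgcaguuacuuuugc
miR-548at-3p: cAAAACCGcaguaacuuuugu

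The 40 matched probes had 25 different seeds. The commonest, AAAGUAA, was shared by 9 probes, of which 1, miR-548ap-5p/miR-548j, was detected. The next, AAAAACU, was shared by 6 probes named 3p, of which 0 were detected. The 4 matched detected members had 4 different seeds, all of which open with AAAG. This opening is not particular to them, since seeds of undetected members, such as AAAGUAC and AAAGUAU, share it. Each had undetected relatives at a few mismatches. The miR-548ah-5p sequence differed from miR-548ar-5p at 2 of 20 aligned bases, and miR-548ap-5p differed from miR-548w at 2 of 19. The miR-548at-5p sequence differed from miR-548b-5p at 3 of 22 bases, and miR-548an differed from miR-548b-5p at 3 of 20. Not all close relatives were undetected, since miR-548ah-5p differed from miR-548ap-5p at 3 of 19 bases and both probes were detected on the Lovo arrays.

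Where the matched detected members lie is known from the same RefSeq table. The mature miR-548an lies on the plus strand at chrX:106639828-106639847, within the span of RADX, which encodes a protein that binds single-stranded DNA at replication forks. The mature miR-548ah-5p lies on the plus strand at chr4:76575561-76575580, within SHROOM3, which encodes an actin-binding protein that shapes epithelial cells. The mature miR-548at-5p lies on the plus strand at chr17:42494773-42494794, within ATP6V0A1, which encodes a subunit of the vacuolar proton pump. The mature miR-548ap-5p lies on the plus strand at chr15:85825655-85825673, where the table lists no gene span other than its own hairpin gene. The table gives gene spans only, so exon, intron and UTR were not distinguished.

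Most of the family gave no signal. Detection required a median signal, foreground minus background intensity, of at least 50 over the 4 spots of a probe on that array. By that measure 6 of 61 miR-548 probes (9.84%) were detected in Lovo knockdown and 7 (11.5%) in Lovo control. The number was 4 (6.56%) on each SW620 array, 5 (8.20%) in HT29 knockdown and 4 (6.56%) in HT29 control. Over all human probes the shares on the same arrays lay between 21.0% and 28.7%, so the family's share was lower on every array. Of the 61 probes, 8 (13.1%) were detected on at least 1 array, against 36.2% of all human probes. On at least 2 arrays 7 (11.5%) were detected, against 30.1% of all human probes, and 2 (3.28%) were detected on all 6, against 13.5%. The other 53 were detected on none. Probes that share sequence are not independent, so these shares were not tested.

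**Figure D1:**
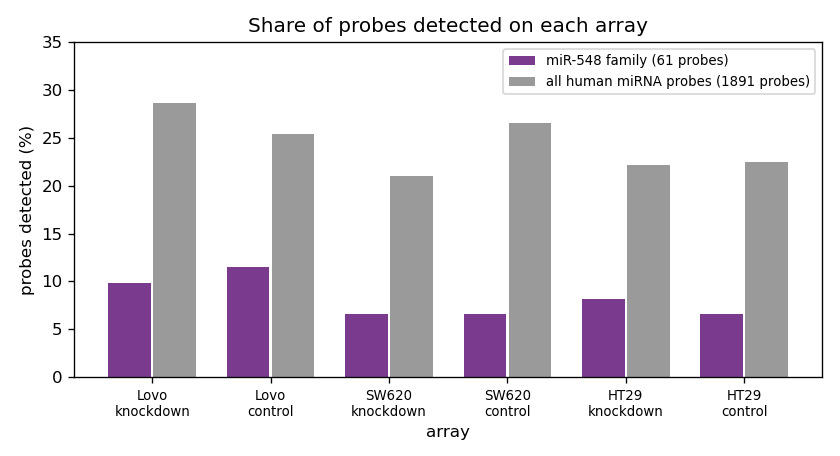
Percentage of probes detected on each of the 6 arrays, with 1 bar for the 61 miR-548 probes and 1 for all 1891 human miRNA probes. The family lies between 6.56% and 11.5%, below the 21.0% to 28.7% of all human probes on every array.

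The medians of the 53 undetected probes lay below those of the negative controls. Their median signal was -29.0 and -73.5 in Lovo knockdown and control, -92.0 and -56.0 in SW620, and -95.0 and -109.5 in HT29. The 7 negative control probes had medians of -18.0 and -67.0, -66.5 and -31.5, and -71.0 and -91.0 on the same arrays. The highest undetected member lay above every negative control on 5 of the 6 arrays, for example at 9.5 against -4.0 in SW620 control and -30.5 against -61.5 in SW620 knockdown. On the remaining array, Lovo knockdown, it reached 20.5, and 1 of the 7 negative controls reached 57.5 and so passed the cutoff too. The median background was lowest on that array, at 86.0 against 138.0 to 202.0 on the others.

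**Figure D2:**
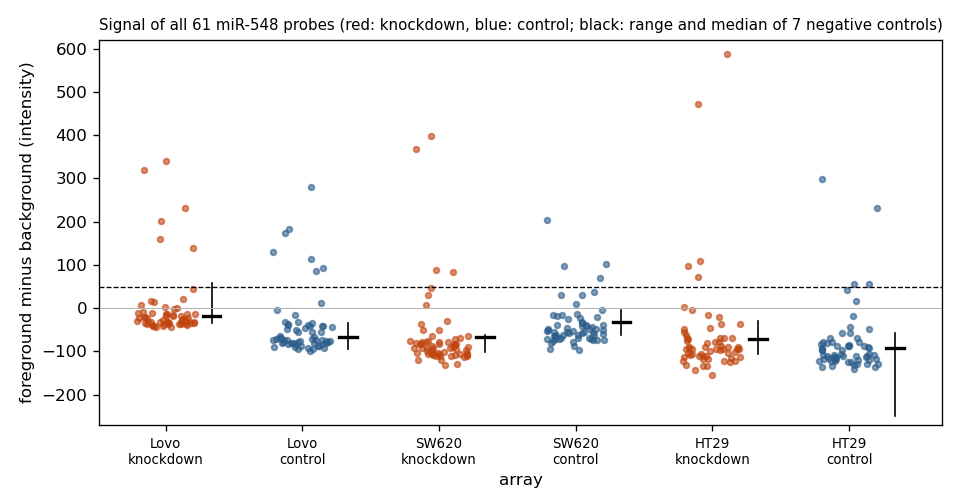
Signal (foreground minus background intensity, median of 4 spots) of each of the 61 miR-548 probes on each array, with the range and median of the 7 negative controls beside them and the cutoff of 50 dashed. The 53 probes never detected form 1 cloud below the cutoff whose median lies below that of the negative controls on each array, and between 4 and 7 probes stand above the cutoff on each array.

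Detection was also set beside base composition. The 40 matched members had a median of 64.3% A and U (45.5% to 81.0%), against 50% for the other matched human miRNAs. Of 299 other human probes with at least 60% A and U, 27.1% were detected on at least 2 arrays and 30.4% on at least 1. Of the 40 matched members 4 (10%) were detected on at least 2 arrays. The matched detected members spanned 63.6% to 68.4% and the matched undetected ones 45.5% to 81.0%. The former thus lay within the range of the latter. The part of base composition in the family's detection was not tested.

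**Figure D3:**
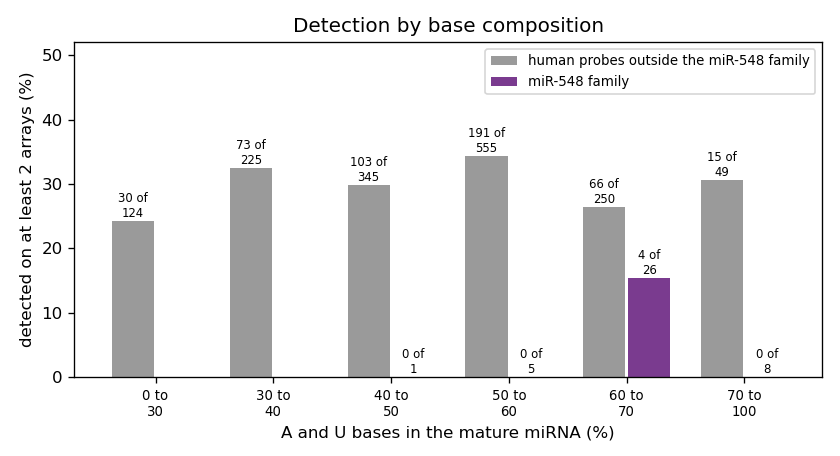
Percentage of matched probes detected on at least 2 arrays, in bins of the share of A and U bases of the mature miRNA, for miR-548 probes and for other human probes; the number detected of the number in the bin stands above each bar. Among miRNAs of 60% to 70% A and U, 4 of 26 miR-548 probes and 66 of 250 others were detected.

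A primate-specific cluster and a list of other transposon-derived miRNAs were set beside the family. Of 49 probes for the placental chromosome 19 cluster (C19MC), another primate-specific group, 10 (20.4%) were detected on at least 1 array and 9 (18.4%) on at least 2. Of 24 probes for other transposon-derived miRNAs, 7 (29.2%) were detected on at least 1 array and 5 (20.8%) on at least 2. The miR-548 family had 13.1% and 11.5% by these measures. On single arrays the order was not fixed, since in Lovo control 5 of 49 C19MC probes (10.2%) were detected against 7 of 61 (11.5%) of the family.

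The 8 detected members are described next by arm, with the signal as foreground minus background in the order Lovo knockdown and control, SW620 knockdown and control, HT29 knockdown and control. Signals of different probes depend on the probe and are not compared with each other. The 4 spots of each probe lie as 2 pairs, in print blocks 18 apart of 36. In 30 cases a member was detected on an array, and in 25 of these (83.3%) both blocks averaged at least 50, against 82.6% over the other human probes.

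Of the 16 probes named 5p, 4 were detected on at least 1 array (25%). Probe miR-548ap-5p/miR-548j gave 319.5 and 86.0 in Lovo, 89.0 and 98.0 in SW620, and 109.5 and 42.0 in HT29. It was detected on 5 arrays, in both blocks each time. Its highest signal was in Lovo knockdown, the array with the lowest background. After normalisation between arrays its log2 values were 8.95 in Lovo knockdown and 7.99 in Lovo control. Probe miR-548a-5p gave 45.0 and 94.0, then 47.0 and 101.0, then 98.0 and 56.0. It was detected on 4 arrays, in both blocks on 3 of them, and its 6 values ranged from 45.0 to 101.0. The remaining 5p members were bright in Lovo alone. Probe miR-548ah-5p gave 200.5 and 174.0 in Lovo, -37.5 and -21.0 in SW620, and -36.5 and -57.5 in HT29. Probe miR-548at-5p gave 231.0 and 113.5 in Lovo, 8.0 and 31.5 in SW620, and -19.5 and -19.0 in HT29. Both were detected on the 2 Lovo arrays and no other. Of the 570 human probes detected on at least 2 arrays, 22 (3.86%) showed this. The Lovo control spots of these 2 members were spread, with 41, 83, 265 and 547 for miR-548ah-5p and 40, 57, 170 and 171 for miR-548at-5p. For miR-548at-5p 1 block averaged 48.5.

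Of the 19 probes named 3p, 3 were detected on at least 1 array (15.8%). Probe miR-548aa/miR-548t-3p was detected on all 6 arrays, with 339.5 and 130.0 in Lovo, 82.5 and 70 in SW620, and 72.5 and 55 in HT29. On both SW620 arrays and in HT29 control only 1 of the 2 blocks averaged at least 50. In SW620 knockdown, for example, its spots read 12, 27, 138 and 223. Probe miR-548ao-3p gave 15.0 and 183.0 in Lovo, 368.0 and 30.5 in SW620, and 587.0 and 299.5 in HT29. It was detected on 4 arrays, in both blocks each time, and the knockdown array was the dimmer of the pair in Lovo and the brighter in SW620 and HT29. Probe miR-548aa/miR-548ap-3p/miR-548t-3p was detected only in Lovo knockdown, at 160.5, with 11.5 in Lovo control, 31.0 and 37.0 in SW620, and 2.5 and 17.5 in HT29.

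Among the 26 probes with no arm in the name 1 was detected (3.85%). This was miR-548an, with 140.0 and 280.0 in Lovo, 398.0 and 204.0 in SW620, and 471.5 and 230.5 in HT29. It passed the cutoff on all 6 arrays and in both blocks of each, the only member to do so. As with miR-548ao-3p, the knockdown array was the dimmer in Lovo and the brighter in the other lines.

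**Figure D4:**
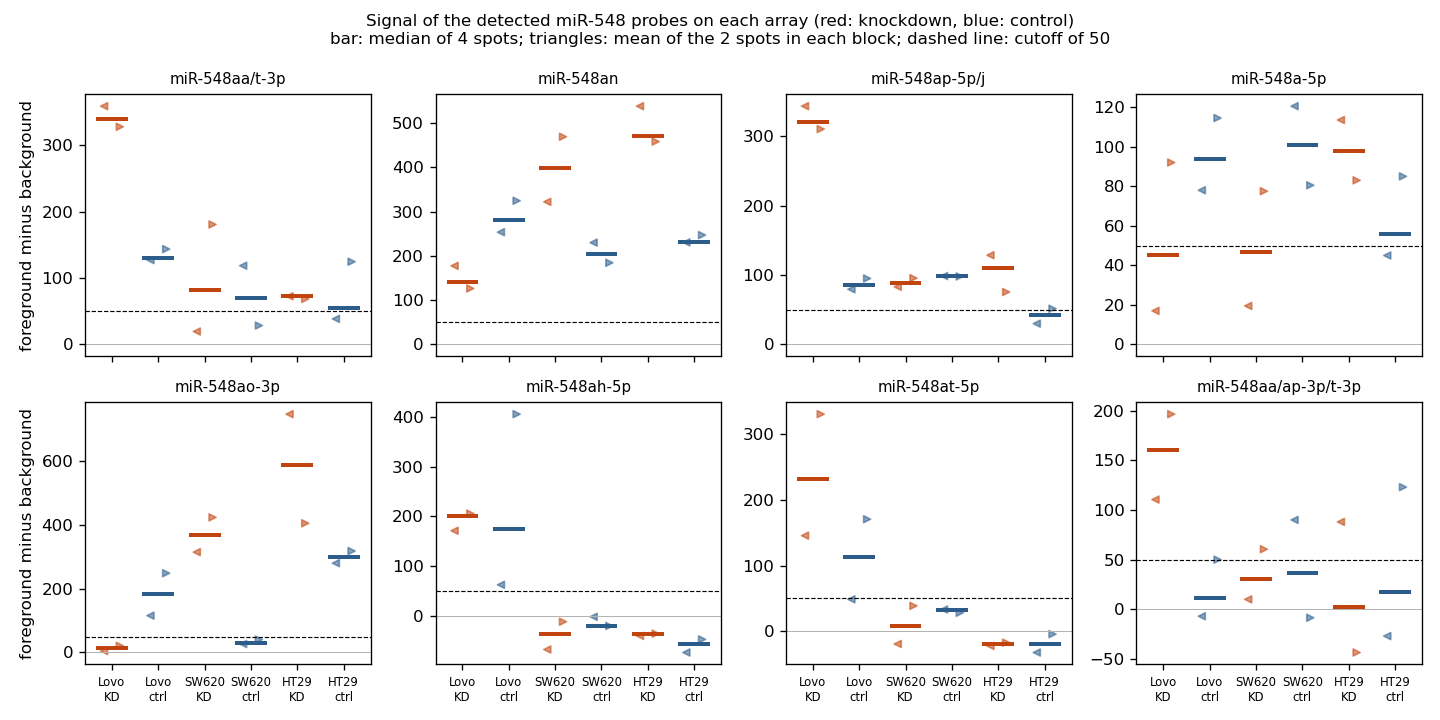
Signal (foreground minus background intensity) of the 8 detected members on each array. Bars mark the median of 4 spots, triangles the mean of the 2 spots in each block, and the dashed line the cutoff of 50; vertical scales differ between panels. Probes miR-548ah-5p and miR-548at-5p lie above the cutoff on both Lovo arrays and no other, and miR-548an does so on all 6 arrays.

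Hairpins with probes for both arms and at least 1 detected probe are given next, and those with neither arm detected are not listed. Since only 8 of the 61 probes were detected on any array, few hairpins could have shown both arms. For miR-548ah the 5p probe was detected on 2 arrays and both probes naming the 3p arm on 0. For miR-548at the 5p probe was detected on 2 arrays and the 3p probe on 0, at -14.5 and -78.0 on the Lovo arrays. For miR-548a the 5p probe was detected on 4 arrays and the 3p probe on 0. For miR-548ao the order was the other way, with the 3p probe on 4 arrays and the 5p probe on 0, and for miR-548t the 5p probe was detected on 0 arrays against 6 and 1 for the probes naming the 3p arm. For miR-548ap the 5p probe was detected on 5 arrays and the probe naming its 3p arm on 1. Across the family 4 of 16 probes named 5p and 3 of 19 named 3p were detected, a difference of 1 probe. When 26 probes without an arm were assigned one from shared 5-letter words of their sequence wherever a sequence was matched, an alternative added after seeing the data, the counts were 5 of 28 and 3 of 24. The knockdown minus control differences described below had medians of 0.11 over the 4 tested 5p probes and 0.38 over the 2 tested 3p probes.

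Several miRNAs are named by more than 1 probe, and these repeat probes were compared as a check of the names. Probe miR-548j was detected on 0 arrays, with -19.0 in Lovo knockdown and -73.5 in Lovo control, whereas miR-548ap-5p/miR-548j was detected on 5. In RefSeq the 19 bases of miR-548ap-5p equal the first 19 of the 22 bases of miR-548j-5p. Probes miR-548aa/miR-548t-3p and miR-548aa/miR-548ap-3p/miR-548t-3p were detected on 6 arrays and 1, and Lovo knockdown was the brightest array for both. The other 4 pairs of probes sharing a name were undetected on all arrays. A signal therefore belongs to a probe, and which of its named miRNAs it came from cannot be told apart.

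The lines were compared over both arrays of each, on normalised log2 intensities, with the shRNA as a block. None of the 7 members detected on at least 2 arrays passed the limma F-test between lines, and 0 of all 570 human probes tested did (0%); 32 had an unadjusted p under 0.05. Both miR-548ah-5p and miR-548at-5p passed the filter of 2 arrays only through the Lovo arrays, where they were bright. The filter thus favoured this pattern, and their line values are given as description only. Of the members 1, miR-548ah-5p, had an unadjusted p under 0.05. Its line means were 8.41 (Lovo), 7.20 (SW620) and 7.18 (HT29). Lovo was higher by 1.21 ± 0.32 (limma SE, 2 arrays per line) than SW620 and by 1.23 ± 0.32 than HT29, with a limma adjusted p of 0.485. As a bound against the dimmest detected signal, its Lovo level was at least 1.86-fold that of the other lines. The means of miR-548at-5p were 8.30, 7.60 and 7.42 (limma adjusted p = 0.907). Its Lovo level was 1.67-fold that of the other lines when values under the weakest detected signal were raised to it. Detection on both Lovo arrays and no other, which these probes show, held for 22 of the 570 probes (3.86%).

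The other members with the lowest p between lines were the detected 3p probes, both with a limma adjusted p of 0.907. Line means of miR-548ao-3p were 7.85 (Lovo), 8.30 (SW620) and 9.19 (HT29), and its largest difference between lines was 1.34, beside gaps of 1.09 between the 2 Lovo arrays and 1.50 between those of SW620. The means of miR-548aa/miR-548t-3p were 8.62, 7.99 and 8.03, with a gap of 0.80 between the Lovo arrays. The remaining members differed by at most 0.53 between any lines. Of 5 epithelial marker miRNAs (the miR-200 family), Lovo knockdown detected 5 and Lovo control 4, SW620 knockdown 0 and SW620 control 1, and both HT29 arrays 0. On both HT29 arrays and in SW620 knockdown none of these markers thus passed the cutoff, although the labels describe colorectal cancer lines. Below the cutoff is not the same as absent. Per array, 0 to 3 of 4 gut epithelial markers, 1 to 3 of 6 blood cell markers and 1 to 5 of 5 fibroblast and smooth muscle markers were detected. Lovo knockdown had 1 blood and 1 fibroblast marker and Lovo control 3 of each. HT29 control had all 5 fibroblast and smooth muscle markers and 0 of the 4 gut epithelial ones. HT29 knockdown had 2 of the 5 fibroblast and smooth muscle markers and each SW620 array 3. Whether this bears on the family was not tested.

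The design asks which miRNAs differ when TGF-β1 is knocked down. No member passed: 0 of the 7 tested had an adjusted p under 0.05 in limma with the line as a block, as did 0 of 570 human probes (0%), and 0 members against 61 of the 570 had an unadjusted p under 0.05. The highest mean difference, knockdown minus control, was that of miR-548ap-5p/miR-548j, 0.49 ± 0.29 on the log2 scale (limma SE, 3 pairs, limma adjusted p = 0.578). It was 0.96 in Lovo, 0.15 in SW620 and 0.34 in HT29, and it was the only member with 1 sign in all 3 lines, which held for 34.9% of the 570 probes. Without the Lovo pair its mean was 0.25, below those of miR-548ao-3p (1.13) and miR-548an (0.68), and without the HT29 pair it was 0.56, just below that of miR-548aa/miR-548t-3p (0.58). The sign in a line turned in HT29 without normalisation between arrays (-0.04), in SW620 with arrays scaled on spike controls (-0.48) and in SW620 in the authors' value table (-0.43).

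The other members had lower means over the 3 lines. Probe miR-548ao-3p had 0.39 ± 0.47, miR-548aa/miR-548t-3p had 0.37 ± 0.29 and miR-548an had 0.25 ± 0.38. Probe miR-548at-5p had 0.17 ± 0.27, miR-548ah-5p had 0.04 ± 0.26 and miR-548a-5p had -0.08 ± 0.27. Their limma adjusted p-values lay between 0.643 and 0.966. In SW620, the only pair without a conflict in its labels, the 7 members ranged from -0.05 (miR-548a-5p) to 1.50 (miR-548ao-3p). The median over the 7 tested members was 0.25, with 6 above 0, against 0.05 over all 570 probes, of which 313 were above 0; with plain background subtraction 3 of the 7 were above 0. The other transposon-derived list had 5 tested probes, of which 0 passed, from miR-151a-5p at -0.65 ± 0.28 to miR-340-3p at 0.78 ± 0.37.

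Within a line there was 1 array per condition, so differences have no replicate check, and the errors given are over the spots of the 2 arrays. Among members detected on both arrays of a line, 0 of 5 in Lovo, 0 of 3 in SW620 and 0 of 4 in HT29 differed at least 2-fold. Over all human probes detected on both arrays, 12.5% did so in Lovo, 14.4% in SW620 and 11.9% in HT29. In Lovo the highest differences belonged to miR-548ap-5p/miR-548j (0.96 ± 0.05), miR-548aa/miR-548t-3p (0.80 ± 0.06) and miR-548at-5p (0.49 ± 0.31), and the lowest to miR-548an (-0.59 ± 0.13) and miR-548ah-5p (-0.05 ± 0.42). In SW620 the 3 members lay at 0.56 ± 0.12 (miR-548an), 0.35 ± 0.29 (miR-548aa/miR-548t-3p) and 0.15 ± 0.03 (miR-548ap-5p/miR-548j). In HT29 the 4 lay at 0.79 ± 0.12 (miR-548an), 0.76 ± 0.19 (miR-548ao-3p), 0.22 ± 0.09 (miR-548a-5p) and -0.04 ± 0.14 (miR-548aa/miR-548t-3p).

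Some members were detected on 1 array of a pair. Only a bound is given where the undetected value lay below the weakest detected value of its array, both as normalised log2 intensities. Elsewhere the fold is the observed one and not a minimum. On the normalised scale an undetected probe can lie above the weakest detected one. In Lovo the control signal of miR-548ao-3p exceeded the knockdown signal at least 1.85-fold, a bound. In SW620 its knockdown signal exceeded control 2.83-fold as observed. The normalised differences behind these values were -1.09 and 1.50, and the first is past 2-fold as observed but not as a bound. With arrays scaled on spike controls the SW620 difference was 0.93, which is under 2-fold. For miR-548aa/miR-548ap-3p/miR-548t-3p, Lovo knockdown exceeded Lovo control 1.55-fold as observed. The observed folds of miR-548a-5p were 1.34-fold in Lovo and 1.04-fold in SW620, both higher in control. Its SW620 difference was -0.05 ± 0.12, and 0.06 without normalisation between arrays. Probe miR-548ap-5p/miR-548j was an observed 1.27-fold higher in knockdown in HT29, where the sign turned without normalisation between arrays (-0.04). The members nearest the cutoff were miR-548a-5p in SW620 knockdown (47.0) and Lovo knockdown (45.0) and miR-548ap-5p/miR-548j in HT29 control (42.0) on the outer side. On the inner side were miR-548aa/miR-548t-3p (55) and miR-548a-5p (56.0) in HT29 control. No member was detected on all arrays of 1 shRNA group and none of the other.

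**Figure D5:**
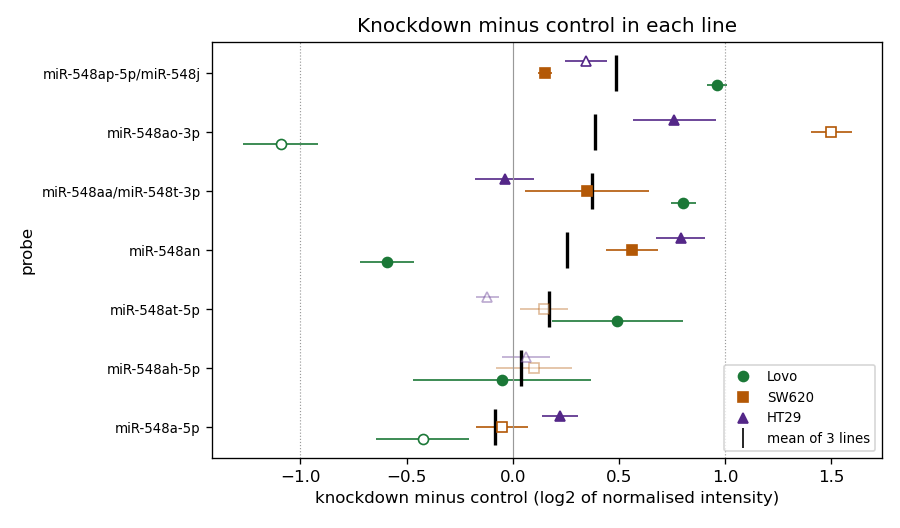
Knockdown minus control of normalised log2 intensity for the 7 tested members, per line with the SE over spots and as the mean of 3 lines (black). Filled points were detected on both arrays of the line, open points on 1, pale open points on 0, and dotted lines mark 2-fold. The 2 points outside the dotted lines both belong to miR-548ao-3p, at -1.09 in Lovo and 1.50 in SW620, each set against an undetected array. As a bound the Lovo point is at least 1.85-fold, and the SW620 point is an observed 2.83-fold.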

How the data were processed

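Per the file headers, the authors deposited 2 intensities for each of 15840 spots (3533 probe identifiers) on 6 arrays of 1 colour, the foreground and that value less the background. The sources used here name no scanner, image software or background method. Their deposited value table gives a ratio, each probe's median spot signal over a single scaling factor for the array, whose derivation is unknown. Per the labels the cultures were grown separately. Intensities were background-corrected by normexp (offset 50), put on the log2 scale, averaged over spots and quantile-normalised over 3462 non-control probes with limma 3.58.1 in R 4.3.3. Probes detected (median signal at least 50) on at least 2 arrays, 570 human ones, were fitted by lmFit and eBayes with a trend and adjusted by Benjamini-Hochberg over all of them. Both arrays of a line come from that line, so the line is the block that pairs them. A bound compares normalised log2 values. It sets the bright group against the dim probe's own value or, where that is lower, the weakest value of a detected probe on each array. Where the probe's own signal was used, the fold is the observed one and not a minimum. The fit was tested on simulated data with no line effect and with shifts far larger than the mean differences of the members. That test does not show that small differences would be found. Named were members detected on all arrays, those with the highest and lowest differences, the lowest p between lines, detection in 1 group only, and those near the cutoff. Members, lists and rules were chosen with earlier results of these data known. Alternatives covered background, normalisation, filter, spots, variance model, blocks, cutoff and left-out arrays. The number of arrays limits the precision.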

Additional observations from a re-analysis of the deposited data

Results flagged for a closer look

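Knockdown minus control of miR-548ao-3p went opposite ways in different lines, at -1.09 in Lovo and 1.50 in SW620 on the log2 scale. The dim array of each pair was undetected. As a bound, control was at least 1.85-fold higher in Lovo. In SW620 knockdown was 2.83-fold higher as observed, which is not a minimum, and with spike control scaling the difference was 0.93. With 1 array per condition the difference between the lines was not tested. The signals behind it were 15.0 against 183.0 in Lovo and 368.0 against 30.5 in SW620, and in each pair the dim array was below the cutoff. For Lovo control another label field names the knockdown vector, whereas all labels of the SW620 pair point the same way.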

How the results depend on the processing

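No member was called between knockdown and control under any of 16 alternative settings, with a smallest limma adjusted p of 0.512 among 107 recomputed member differences; over all human probes the same settings called 0 to 25. The sign of a mean turned in 9 of the 107. With plain subtraction it turned for miR-548ah-5p (-0.11), miR-548ao-3p (-0.047) and miR-548at-5p (-0.089), without normalisation for miR-548ah-5p (-0.12), in the value table for miR-548at-5p (-0.17), and with spike control scaling for miR-548a-5p (0.40, where the median of all human probes was 0.57 against 0.05). Leaving out 1 pair moved miR-548ap-5p/miR-548j between 0.25 and 0.65, miR-548a-5p between -0.24 and 0.087, miR-548an between -0.015 and 0.68, and miR-548ao-3p between -0.17 and 1.13. Between lines, 0 members were called under the alternatives that kept all 6 arrays, which called 0 to 6 of all human probes. Under these the limma adjusted p of miR-548ah-5p ranged from 0.0787 (median scaling) to 0.828 (plain subtraction). Leaving out 1 array leaves a line with 1 array, so calls from those fits are not given. The outcome for miR-548ah-5p did depend on whether the HT29 control array was kept, as did the calls over all human probes. The dependence was therefore not particular to this member. Members at least 2-fold in Lovo, SW620 and HT29 numbered 4, 1 and 3 with plain subtraction (43.4%, 44.6% and 36.2% of all human probes), 3, 0 and 2 in the value table (31.6%, 38% and 29.6%) and at 1.5-fold (33.8%, 37.5% and 38.1%), and 2, 0 and 4 with spike control scaling (16.9%, 22.8% and 90.9%). They numbered 1, 0 and 2 with median scaling (13.7%, 13.3% and 17.6%), 1, 0 and 0 with a normexp offset of 16 (15.2%, 17.1% and 15.1%), and 1, 1 and 0 when detection on 1 array of the pair was enough (15.6%, 13.7% and 22.1%), out of 5, 3 and 4 members, or 8, 5 and 5 in the last. The cause of these shifts was not tested, apart from the looser thresholds, which admit more by construction. Detection on at least 1 array stayed at 8 members (13.1%) with cutoffs of 25 and 100, with the mean over spots and with every spot required. Over all human probes the share under these settings ran from 29.6% (cutoff 100) to 40.7% (cutoff 25). With both blocks required, an alternative added after seeing the data, it was 8 members and 605 of 1891 human probes. Detection on at least 2 arrays ranged from 5 members (8.20%, every spot required) to 8 (13.1%, cutoff 25). The shares of all human probes under those 2 settings were 23.2% and 34.6%. The knockdown, the label conflict and which of a probe's named miRNAs bound it could not be settled, and 1 array per condition leaves 2 residual degrees of freedom.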
